A study of Mus musculus with 4 samples.

Results

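The genes described here encode 10 cell-surface or secreted proteins through which antigen-presenting and tissue cells stimulate, restrain or kill lymphocytes and other cells. They were found in a table of 21899 rows of protein-coding genes by their symbols, and each of the 10 had 1 row. The set holds both ligands of the inhibitory receptor PD-1 (Cd274 and Pdcd1lg2), the ligands of CD28 and CTLA-4 (Cd80 and Cd86), the ligand of ICOS (Icosl), the TNF receptor family members Cd40 and Fas, and the TNF family ligands Tnfsf9, Tnfsf13b and Tnfsf10. Of the 10, 9 had a mean of at least 1 FPKM and were tested, and Pdcd1lg2 lay below that level.

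A T cell that recognises antigen also reads a second set of signals from the cell that presents it. CD80 and CD86 engage CD28 to activate the T cell or CTLA-4 to restrain it, while PD-L1 and PD-L2 engage PD-1 and dampen its activity. Interferons, above all interferon gamma acting through JAK kinases and IRF1, are well known inducers of PD-L1 in many cell types. Members of the TNF family work as trimers: some, such as BAFF and 4-1BBL, sustain lymphocytes, and others, such as TRAIL and FasL, trigger apoptosis through death receptors. In adipose tissue macrophages, dendritic cells and B cells carry many of these molecules, and adipocytes themselves can carry PD-L1.

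RNA was sequenced from mouse subcutaneous white adipose tissue of 2 groups, whose labels read miR-203 inhibitor and negative control. Each group had 2 libraries, called control 1, control 2, inhibitor 1 and inhibitor 2 here, and each library came from RNA pooled from 3 animals, so that errors and p-values reflect the spread between pools. The sources used here do not give strain, age, dose, route or duration, and miR-203 itself was not analysed here, so the action of the inhibitor was not checked. Values are FPKM, fragments per kilobase of transcript scaled to library size, and the absolute depth is unknown, with 15373 to 15587 rows above 0 in each library. Adipocyte markers were abundant, with a summed level of 14154 to 18585 FPKM over 8 genes. Control 2 stood apart in lymphocyte genes: its 9 B cell markers summed to 5.37 FPKM, against 241 in control 1, 101 in inhibitor 1 and 99.0 in inhibitor 2.

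The microRNA that the inhibitor is named for pairs with messenger RNAs mainly through bases 2 to 8 of its 3p strand, the seed. Its mature sequence, from RefSeq on GRCm38.p6 at chr12:112130927-112130948 on the plus strand, is shown with the seed in capitals because the members' transcripts were searched for its complement.
mmu-miR-203-3p: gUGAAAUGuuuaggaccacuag

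Between inhibitor and control tissue, Cd274, which encodes PD-L1, was the 1 member of the 9 tested that rose, and 0 fell. Over all 12345 rows tested with limma, 3.22% were higher and 0.267% were lower at an adjusted p under 0.05. These are 397 and 33 rows, which became 326 and 92 with quantile normalization and 278 and 55 with upper quartile scaling. At an unadjusted p under 0.05, 4 of the 9 tested members were higher (Cd274, Tnfsf10, Cd86 and Cd40) and 0 lower, against 1650 and 734 of all 12345 rows. Both inhibitor values lay above both control values in 8 of the 10 members, below them in Tnfsf13b, and among them in Icosl. Such a separation was frequent in the whole table, with 33.1% of the tested rows higher and 19.1% lower, so it is given here as a description of each gene. The log2 fold changes of members, which are on the scale of log2(FPKM + 1) throughout, ran from -0.19 to 1.21, and the median over all tested rows was 0.07. The samples are whole tissue, so fewer cells of a type and less RNA per cell cannot be told apart in any of these values.

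**Figure D1:**
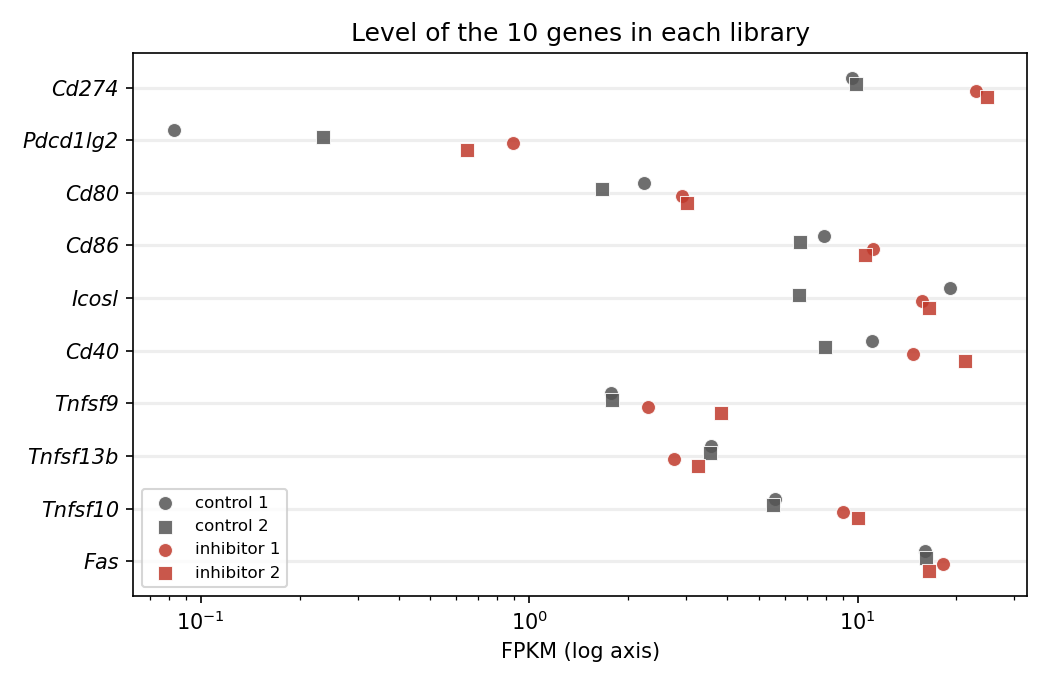
FPKM on a log axis for each of the 10 genes, with 1 point for each of the 4 libraries (grey control, red inhibitor, circles library 1, squares library 2). Cd274 went from about 9.77 to 23.8 FPKM with close replicates, Icosl was low in control 2 alone at 6.64 FPKM, and Fas lay between 16.1 and 18.2 FPKM in all libraries.

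In the controls, per unit of transcript length, Fas was the most abundant member at a mean of 16.1 FPKM, followed by Icosl (12.9), Cd274 (9.77), Cd40 (9.51), Cd86 (7.27), Tnfsf10 (5.56), Tnfsf13b (3.56), Cd80 (1.95), Tnfsf9 (1.78) and Pdcd1lg2 (0.159). The first 4 of these overlapped their neighbours in the order, as did Cd80 and Tnfsf9. In the inhibitor libraries Cd274 stood first at 23.8 FPKM, with both values above both values of Cd40 (mean 18.0 FPKM), the next in order. Cd40 overlapped Fas (17.4 FPKM), and Tnfsf9 (3.07), Tnfsf13b (3.02) and Cd80 (2.97) overlapped as neighbours near the low end.

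PD-L1 restrains T cells that carry PD-1. Its gene Cd274 (ENSMUSG00000016496.7) maps to chr19:29367455-29388095 (plus strand) of GRCm38, and an annotated antisense RNA gene overlaps it. Cd274 had 9.64 FPKM in control 1 and 9.90 in control 2, against 22.9 in inhibitor 1 and 24.8 in inhibitor 2. The replicates of each group lay close together and the groups were well apart. The mean went from 9.77 ± 0.179 to 23.8 ± 1.30 FPKM (SD, n = 2), which is 2.44-fold higher, with a log2 fold change of 1.21 ± 0.11 (SE, limma adjusted p = 0.0108). The fold change stayed between 1.10 and 1.28 on the log2 scale under the 11 alternatives, with adjusted p from 0.0109 to 0.188. The call ended without inhibitor 1 (log2 fold change 1.26, adjusted p = 0.125) and without inhibitor 2 (1.15, adjusted p = 0.188), settings in which 0 of all rows passed. With 1 library left in a group, here and below, that library is assumed to vary like the pair of the other group. The log2 fold change of Cd274 was 1.19 without control 1 and 1.22 without control 2, the library poor in B cell genes. The part of B cells in the level of Cd274 was not tested.

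The promoter of the member that rose is shown in full, from RefSeq on GRCm38.p6 at chr19:29367188-29367487 on the plus strand, from 250 bases before to 50 after the start of transcription. It was searched for the core of the interferon stimulated response element, GAAANNGAAA, on both strands, and for the core of the gamma activated site, a DNA element of the interferon gamma response, TTCNNNGAA, which reads the same on both strands. Neither run of letters occurred in this window, so it carries no capitals. Only these exact patterns were searched, so shorter or variant forms of such elements may be present in the window.
Cd274 promoter: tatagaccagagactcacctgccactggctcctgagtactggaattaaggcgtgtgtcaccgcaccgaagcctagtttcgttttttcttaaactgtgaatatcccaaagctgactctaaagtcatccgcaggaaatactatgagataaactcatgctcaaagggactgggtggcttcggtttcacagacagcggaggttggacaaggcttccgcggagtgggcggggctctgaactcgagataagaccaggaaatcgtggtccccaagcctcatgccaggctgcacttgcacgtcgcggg
Of 32851 promoters of this length in RefSeq, 3.44% held the first motif and 8.30% the second. Promoters were found for 7 of the 10 members, in 8 windows, and Cd86, Cd40 and Tnfsf9 had none in the table. Among the 8 windows the first motif occurred in 1, that of Tnfsf13b, and the second in 1, that of Fas, which are printed with those genes.

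PD-L2, the second ligand of PD-1, is mostly a product of dendritic cells and macrophages. Its gene Pdcd1lg2 lies 22823 bases beyond the end of Cd274, at 29410919 to 29471161 on chromosome 19, and overlaps an antisense gene, A930007I19Rik. Pdcd1lg2 had 0.0829 and 0.236 FPKM in control 1 and control 2, and 0.895 and 0.647 FPKM in inhibitor 1 and inhibitor 2. All 4 values were under 1 FPKM and the inhibitor values were the higher ones. It was not tested with the filter on low values. In the fit of all 16558 rows with any value above 0 its log2 fold change was 0.61 (adjusted p = 0.158). Its difference depends on the pseudocount, at 1.80 with 0.1 added and 0.95 with 0.5 added, since the levels are low.

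PD-1 itself, encoded by Pdcd1, also lay below the filter, at 0.482 and 0.457 FPKM in control tissue against 0.817 and 0.918 in inhibitor 1 and inhibitor 2. Rgmb, a protein of the repulsive guidance family that binds PD-L2, had 9.47 and 9.10 FPKM in control tissue against 9.67 and 8.61 with the inhibitor (log2 fold change -0.02 ± 0.13, adjusted p = 0.944). The 2 groups overlapped for Rgmb.

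Genes known to act on PD-L1 were taken as a list of 12, made of interferon gamma receptor chains, JAK kinases, STAT and IRF factors, NF-kB subunits and the membrane proteins CMTM6 and CMTM4, which protect PD-L1 from degradation. Of these 12, 2 rose and 0 fell by limma (8 and 1 at an unadjusted p under 0.05), with a median log2 fold change of 0.41. Over all 12345 rows tested, 3.22% were higher and 0.267% lower by limma (1650 and 734 rows at an unadjusted p under 0.05), with a median of 0.07. Stat2, a transcription factor of the response to type I interferons, rose from 21.0 to 65.2 FPKM (log2 fold change 1.59 ± 0.17, adjusted p = 0.0139). Irf9, the DNA-binding partner of Stat2, rose from 26.6 to 52.7 FPKM (0.96 ± 0.12, adjusted p = 0.0220), but lies within the same-strand gene model Rnf31 for part of its length, so its reads may be shared. Stat2 and Irf9 lost their calls with no filter (adjusted p = 0.0549 and 0.0658), and Irf9 also with no trend in the variance prior (0.0590). Irf1 had 56.2 and 49.1 FPKM in control tissue against 79.2 and 99.8 with the inhibitor, a log2 difference of 0.75 (adjusted p = 0.0646), and is named after its values were seen because it acts directly on the PD-L1 gene. Without control 1, 4 of the 12 were higher, with Irf1 and Nfkb1 added, the latter also named after its values were seen.

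**Figure D2:**
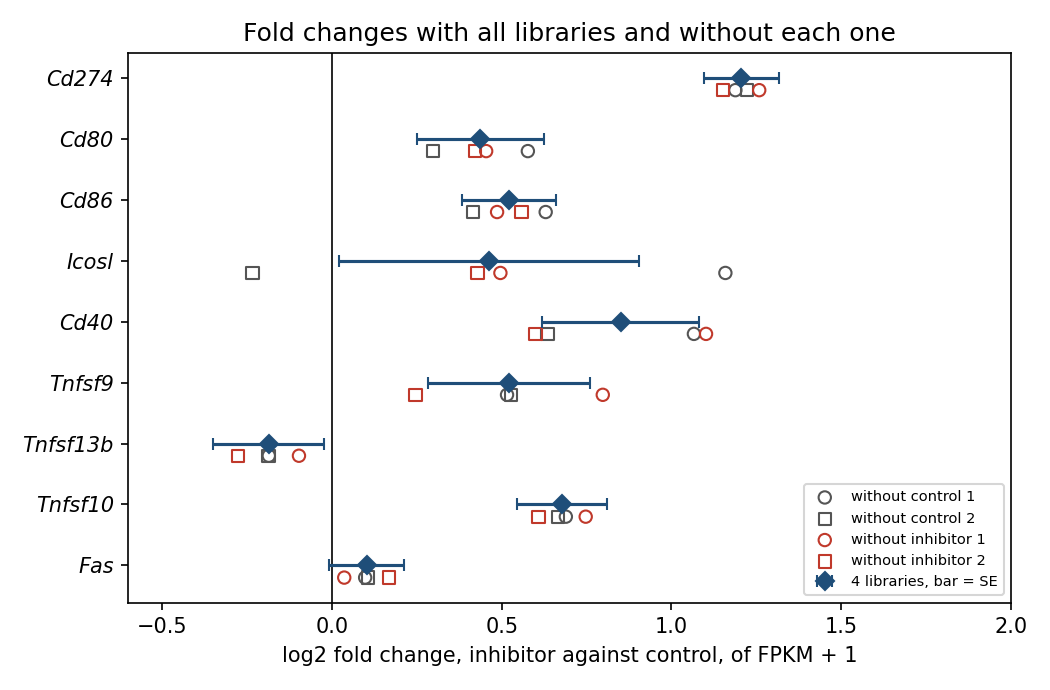
Log2 fold change of FPKM + 1, inhibitor against control, for the 9 members tested, as blue diamonds with the standard error of limma, and open points for the same value without each library. Cd274 stayed between 1.15 and 1.26 whichever library was left out, whereas Icosl went from 1.16 without control 1 to -0.23 without control 2.

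CD80 and CD86 are the paired ligands of CD28 and CTLA-4, carried by activated antigen-presenting cells. Both genes lie on chromosome 16, Cd86 at 36603869 to 36666081 on the minus strand and Cd80 at 38455561 to 38496335 on the plus strand. Cd86 had 7.88 and 6.66 FPKM in control 1 and control 2, and 11.1 and 10.6 FPKM in inhibitor 1 and inhibitor 2. Both inhibitor values were above both controls, and the mean was 1.49-fold higher, but the log2 fold change of 0.52 ± 0.14 did not pass (SE, limma adjusted p = 0.130). Cd80 was less abundant, at 2.23 and 1.66 FPKM in control tissue against 2.93 and 3.02 in the inhibitor libraries. The groups were separate here too, at 1.53-fold, and the log2 fold change was 0.44 ± 0.19 (adjusted p = 0.289). Neither gene passed under any of the 11 alternatives, in which the adjusted p was 0.0896 to 0.469 for Cd86 and 0.201 to 0.661 for Cd80.

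The receptors of this pair showed another pattern across libraries. Cd28, the activating receptor of T cells, had 1.99 FPKM in control 1, 0.707 in control 2, 1.96 in inhibitor 1 and 3.09 in inhibitor 2. Ctla4, its inhibitory counterpart, had 1.72, 0.195, 1.19 and 2.06 FPKM in the same order. For both receptors control 2 was the lowest library and control 1 lay among the inhibitor libraries. Their log2 fold changes of 0.62 ± 0.34 and 0.52 ± 0.44 did not pass (adjusted p = 0.385 and 0.567). The 12 markers of T and NK cells summed to 124 FPKM in control 1, 48.2 in control 2, 129 in inhibitor 1 and 158 in inhibitor 2. Control 2 was the lowest library for 10 of the 12, and the share over all rows tested was not computed. The part of T and NK cells in these values was not tested.

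Icosl encodes the ligand of the T cell receptor ICOS and is known from B cells, dendritic cells and other cells. It maps to chr10:78069302-78083913 (plus strand). Icosl had 19.1 FPKM in control 1 and 6.64 in control 2, against 15.7 and 16.5 FPKM in inhibitor 1 and inhibitor 2. The controls differed 2.87-fold from each other, the inhibitor libraries 1.05-fold, and the inhibitor values lay between the controls. The log2 fold change was 0.46 ± 0.44 (SE, adjusted p = 0.620). Without control 1 it was 1.16 and passed (adjusted p = 0.0146), and without control 2 it was -0.23 (adjusted p = 0.468), so its direction rested on which control was kept. The low library was the one low in B cell markers (5.37 FPKM against 99.0 to 241 in the other libraries), with 0 of 9 B cell markers past the threshold by limma and 0 at an unadjusted p under 0.05. Dendritic cell markers summed to 104 FPKM in control 1, 55.7 in control 2, 81.5 in inhibitor 1 and 95.5 in inhibitor 2, with 0 of 9 tested past the threshold and 0 at an unadjusted p under 0.05. The part of either cell type in the level of Icosl was not tested. ICOS itself followed the T cell markers: Icos had 1.98, 0.695, 1.87 and 3.40 FPKM in control 1, control 2, inhibitor 1 and inhibitor 2 (log2 fold change 0.66 ± 0.36, adjusted p = 0.386).

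**Figure D3:**
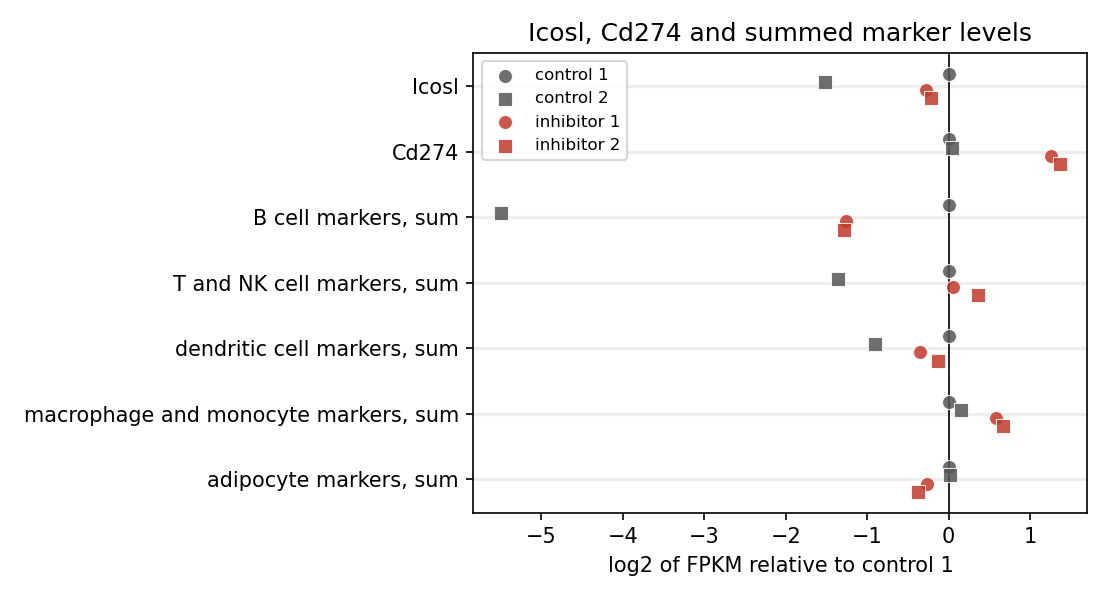
Log2 of FPKM relative to control 1 for Icosl, Cd274 and the summed markers of 5 cell types, with 1 point for each library. Control 2 was the lowest library for Icosl (6.64 FPKM) and for B cell, T and NK cell and dendritic cell markers. Cd274 had 9.64 and 9.90 FPKM in control 1 and control 2. The part of these cell types in either gene was not tested.

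CD40 is a receptor of the TNF receptor family on B cells, dendritic cells and macrophages, which receives the help of T cells through CD40 ligand. Its gene maps to chr2:165055627-165072948 (plus strand). Cd40 had 11.1 and 7.95 FPKM in control 1 and control 2, and 14.7 and 21.3 FPKM in inhibitor 1 and inhibitor 2. The groups were separate and the mean was 1.90-fold higher, but both groups were spread, by 1.39-fold and 1.44-fold between their libraries. The log2 fold change of 0.85 ± 0.23 did not pass (SE, adjusted p = 0.135, and 0.0604 to 0.532 under the alternatives). Cd40lg, the ligand made by activated T cells, was below the filter, with 0.925 FPKM in control 1, 0.220 in control 2, 0.125 in inhibitor 1 and 0.389 in inhibitor 2.

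Markers of macrophages and monocytes, which also carry CD40, CD80, CD86 and PD-L1, did not all differ in the same direction. Of 12 such markers 3 rose, Cd68, Fcgr1 and Ly6c2, and 0 fell by limma (5 and 1 at an unadjusted p under 0.05), and 7 of the 12 had both inhibitor values above both controls and 4 had both below. The shares over all rows tested were 3.22% higher and 0.267% lower by limma, and 33.1% with both values above and 19.1% with both below. The summed level of the 12 was 1513 and 1676 FPKM in control tissue against 2260 and 2393 in the inhibitor libraries. Most of that difference lay in Ly6c2, a surface antigen of monocytes, which had 129 and 191 FPKM in control tissue against 665 and 876 in the inhibitor libraries. Without Ly6c2 the other 11 summed to 1384 and 1485 FPKM in control tissue against 1595 and 1516. The 4 with both inhibitor values below the controls were Lyz2, the lysozyme of macrophages and the most abundant of the 12, the mannose receptor Mrc1, the growth factor receptor Csf1r and the chemokine receptor Cx3cr1. Mrc1 had 47.7 and 48.8 FPKM in control tissue against 38.6 and 34.5 with the inhibitor (adjusted p = 0.117), and Lyz2 had 891 and 907 against 827 and 710.3 FPKM (adjusted p = 0.317). The genes named from this list were chosen after their values were seen. The part of macrophages in the rise of Cd274 was not tested.

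4-1BB ligand, encoded by Tnfsf9, stimulates activated T cells through 4-1BB. The gene is short, at 57105325 to 57107757 on the plus strand of chromosome 17, and a noncoding gene overlaps it on the other strand. Tnfsf9 had 1.77 and 1.79 FPKM in control tissue, against 2.30 and 3.83 FPKM in inhibitor 1 and inhibitor 2. Both inhibitor values were above the controls but differed 1.67-fold from each other, and the log2 fold change was 0.52 ± 0.24 (SE, adjusted p = 0.315). The value was 0.80 without inhibitor 1 and 0.25 without inhibitor 2. Its receptor gene Tnfrsf9, which overlaps Camta1 on the opposite strand, had 3.41, 0.927, 2.67 and 5.82 FPKM in control 1, control 2, inhibitor 1 and inhibitor 2, so that control 2 was again lowest (adjusted p = 0.440).

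BAFF, encoded by Tnfsf13b, keeps B cells alive, and was the 1 member with both inhibitor values below both controls. The gene maps to chr8:10006467-10039072 (plus strand). Tnfsf13b had 3.57 and 3.56 FPKM in control 1 and control 2, and 2.77 and 3.27 FPKM in inhibitor 1 and inhibitor 2. The gap was small against the spread of the inhibitor libraries, and the log2 fold change of -0.19 ± 0.16 did not pass (SE, adjusted p = 0.586, and 0.420 to 0.861 under the alternatives). The controls were nearly equal for Tnfsf13b and differed widely in B cell markers. The part of B cells in the level of Tnfsf13b was not tested.

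Tnfsf13b was also the member with the most complements of the miR-203-3p seed in its longest annotated 3' untranslated region, with 3 in 3631 bases. They are shown because an inhibitor would be designed to relieve such sites, with the match in capitals and 11 bases on each side, 5′ to 3′ on the plus strand of GRCm38. The first 2 pair with bases 2 to 8 and the third with bases 2 to 7 followed by an A.
Tnfsf13b chr8:10036599-10036627: caggtgagaagCATTTCAgatgaaataac
Tnfsf13b chr8:10037057-10037085: aagggcctgttCATTTCAttggcccattt
Tnfsf13b chr8:10038908-10038936: ggggttctcaaATTTCAAtaccaccatag
A single match of the last kind was found in each of Cd80, Cd86 and Tnfsf10, near the end of the region in Cd86 and Tnfsf10. The Cd86 line is on the minus strand and the others on the plus strand.
Cd80 chr16:38495450-38495478: atatagttcttATTTCAAatgagattatt
Cd86 chr16:36603883-36603911: gtacagagtggATTTCAAtaaagttttct
Tnfsf10 chr3:27339543-27339571: tcatggtgattATTTCAAatgtattgata
The other 6 members, Cd274 among them with 2683 bases searched, held 0 such matches. The match that pairs with bases 2 to 8 and is followed by an A was found in 0 of the 10 members, and in 4.93% of the 12172 tested genes that had such a region. Of those genes 24.5% held a match of at least 1 of the 3 kinds, against 4 of the 10 members, which include the untested Pdcd1lg2. The median region of those genes had 1151 bases. It had 1896 bases in Cd80, 1493 in Cd86, 3998 in Tnfsf10 and 3631 in Tnfsf13b, and 253 to 2683 in the other 6 members. The shares were not compared at equal length. A match is a run of letters and was not shown to be bound.

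The promoter of Tnfsf13b is shown for its second annotated start, because it was the 1 window of the members that held GAAANNGAAA. It is from RefSeq on GRCm38.p6 at chr8:10006383-10006682 on the plus strand, with the motif in capitals, starting 16 bases before the start of transcription.
Tnfsf13b promoter: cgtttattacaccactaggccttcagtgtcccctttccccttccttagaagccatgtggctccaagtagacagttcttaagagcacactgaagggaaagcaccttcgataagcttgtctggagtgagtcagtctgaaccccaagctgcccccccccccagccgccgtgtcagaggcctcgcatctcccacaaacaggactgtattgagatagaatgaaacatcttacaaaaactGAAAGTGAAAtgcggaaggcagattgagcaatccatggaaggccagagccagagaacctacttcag

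The receptors of BAFF split the libraries in another way. Tnfrsf13c, the BAFF receptor of B cells, had 10.8 FPKM in control 1, 0.0662 in control 2, 4.10 in inhibitor 1 and 4.79 in inhibitor 2. It was near 0 in control 2 only, and its log2 fold change of 0.62 ± 1.08 did not pass (adjusted p = 0.797). With 1 control left, and the spread taken from the inhibitor pair alone, it was 2.35 without control 1 (adjusted p = 0.00769) and -1.11 without control 2 (adjusted p = 0.0430), although the controls themselves differed more than the groups. Tnfrsf13b, which encodes TACI, had 21.1, 10.2, 17.0 and 22.5 FPKM in the same order (adjusted p = 0.588). Tnfrsf17, which encodes the plasma cell receptor BCMA, was below the filter, with 0.390 to 1.43 FPKM.

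TRAIL, encoded by Tnfsf10, can trigger apoptosis in cells that carry its death receptor, and is known as an interferon-inducible ligand. The gene maps to chr3:27317028-27342427 (plus strand). Tnfsf10 had 5.61 and 5.51 FPKM in control 1 and control 2, and 9.0 and 10.01 FPKM in inhibitor 1 and inhibitor 2. The groups were separate, with the replicates of each close together, and the mean was 1.71-fold higher. The log2 fold change of 0.68 ± 0.13 did not pass (SE, limma adjusted p = 0.0708), nor did it under any of the 11 alternatives (0.0692 to 0.423). Its receptor gene Tnfrsf10b had 2.34 and 2.55 FPKM in control tissue against 3.28 and 4.07 with the inhibitor (log2 fold change 0.44 ± 0.18, adjusted p = 0.266).

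Fas is the receptor through which Fas ligand on T and NK cells kills. The gene maps to chr19:34290666-34327772 (plus strand). Fas had 16.1 and 16.2 FPKM in control tissue, against 18.2 and 16.5 FPKM in inhibitor 1 and inhibitor 2. The inhibitor values were just above the controls, and the log2 fold change of 0.10 ± 0.11 did not pass (SE, adjusted p = 0.661). With quantile normalization, which moved the median of all rows by -0.099, it was -0.0026 ± 0.11, so no direction is given for Fas. Fasl, the ligand, had 0.754 and 0.715 FPKM in control tissue against 2.48 and 1.37 with the inhibitor (log2 fold change 0.73 ± 0.25, adjusted p = 0.212).

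The Fas promoter is shown because it was the 1 window of the members that held TTCNNNGAA, in capitals, starting 93 bases before the start of transcription. It is from RefSeq on GRCm38.p6 at chr19:34290409-34290708 on the plus strand.
Fas promoter: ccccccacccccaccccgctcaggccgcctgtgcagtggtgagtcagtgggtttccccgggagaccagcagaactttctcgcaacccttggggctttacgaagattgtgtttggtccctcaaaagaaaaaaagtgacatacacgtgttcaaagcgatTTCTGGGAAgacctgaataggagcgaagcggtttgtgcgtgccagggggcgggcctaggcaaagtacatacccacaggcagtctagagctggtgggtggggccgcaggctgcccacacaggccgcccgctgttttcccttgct

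**Figure D4:**
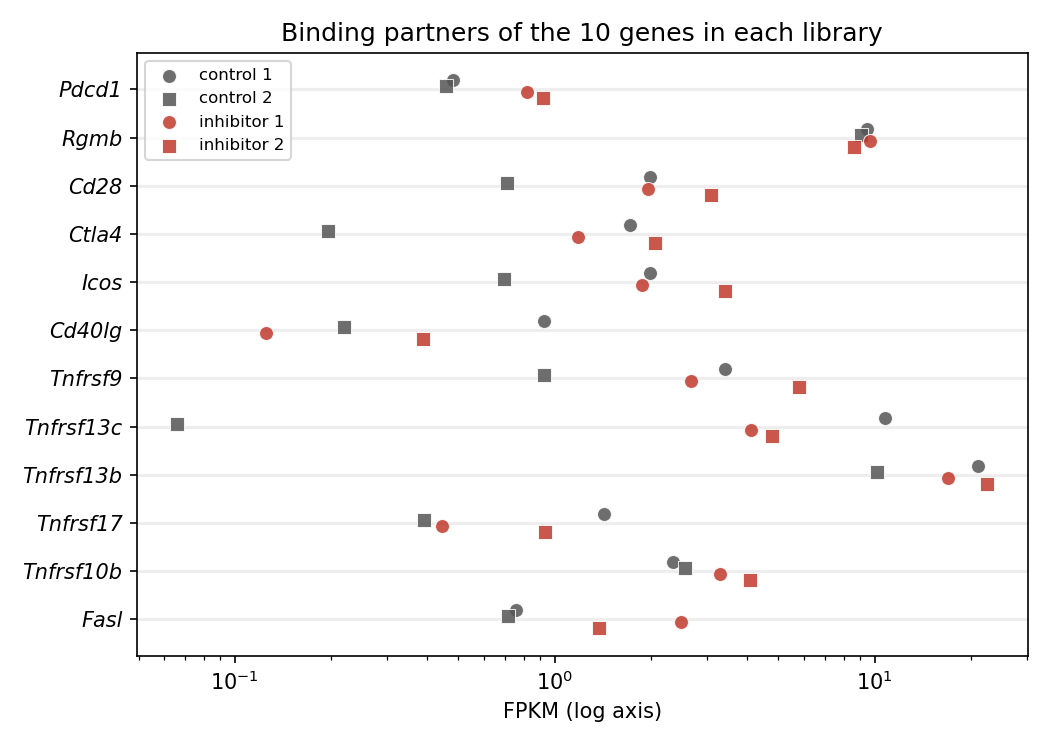
FPKM on a log axis for 12 receptors or ligands that bind the members, with 1 point for each of the 4 libraries. Pdcd1, Tnfrsf10b and Fasl had both inhibitor values above both controls. In Cd28, Ctla4, Icos, Tnfrsf9, Tnfrsf13c, Tnfrsf13b and Tnfrsf17 control 2 was the lowest library. It was also the lowest, close to control 1, in Pdcd1 (0.457 against 0.482 FPKM) and Fasl (0.715 against 0.754 FPKM).

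The wider families of these molecules were described by lists, which were chosen with earlier results of these data known. For each list here and below, the shares over all 12345 rows tested are 3.22% higher and 0.267% lower by limma. At an unadjusted p under 0.05 they are 1650 and 734 rows, and the median log2 fold change of all rows is 0.07. Of 21 other ligands of immune receptors, most of them from the B7, nectin and TNF families, 14 were tested, of which 1 rose and 0 fell by limma (6 and 0 at an unadjusted p under 0.05), with a median log2 fold change of 0.49. The 1 was Lgals9, which belongs to none of these families and encodes galectin-9, a ligand of the checkpoint receptor TIM-3, at 81.7 and 77.8 FPKM in control tissue against 200.3 and 208.6 with the inhibitor (log2 fold change 1.35 ± 0.08, adjusted p = 0.00812). Without control 1 the count was 3, with Cd48 and Ltb added, both named after their values were seen.

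Of 29 receptors of such ligands 25 were tested, of which 1 rose and 0 fell by limma (5 and 0 at an unadjusted p under 0.05), with a median of 0.47. The 1 was Tnfrsf1b, encoding TNF receptor 2, at 28.2 and 25.3 FPKM in control tissue against 42.5 and 42.2 with the inhibitor (log2 fold change 0.65 ± 0.10, adjusted p = 0.0384). It lay near the threshold and passed under 3 of the 11 alternatives, both other pseudocounts and without control 1. Its adjusted p was 0.0759 without control 2, 0.0591 with a replicate block and 0.0553 with quantile normalization. Control 2 was the lowest library for 19 of the 25 receptors. It was also the lowest for 10 of the 14 other ligands tested and 9 of the 12 PD-L1 regulators. The same held for 13 of the 20 genes of death receptor and TNF receptor signals described next. It was the lowest for 0 of the 12 macrophage and monocyte markers and 0 of the 8 adipocyte markers. The share over all rows tested was not computed, so the pattern is not given as particular to receptors. Without control 1, 5 receptors were higher, of which Btla, Cd27 and Tigit are named after their values were seen, and without control 2 0 were higher by limma and 1, Tnfrsf13c, was lower.

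Of 20 genes that carry death receptor and TNF receptor signals 2 rose and 0 fell by limma (9 and 0 at an unadjusted p under 0.05), with a median of 0.36. Casp8, the caspase that death receptors activate, rose from 34.6 ± 1.60 to 58.0 ± 3.22 FPKM (SD, n = 2; log2 fold change 0.73 ± 0.10, adjusted p = 0.0234). It did not pass with no filter (0.0575), no trend (0.0695) or upper quartile scaling (0.0508). Daxx, first found as a protein that binds Fas and known as a histone chaperone, rose from 24.4 ± 5.09 to 80.7 ± 9.84 FPKM (1.69 ± 0.17, adjusted p = 0.0129), and did not pass with no filter (0.0534). Without control 1, 4 of the 20 were higher, with Traf1 and Mcl1 added, and without control 2, 3 were higher, with Faim added, all named after their values were seen.

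Of the remaining marker lists, 8 adipocyte markers had 0 past the threshold by limma (0 higher and 7 lower at an unadjusted p under 0.05), and their sum was 18344 and 18585 FPKM in control tissue against 15205 and 14154 in the inhibitor libraries. Of 5 endothelial markers, 4 tested markers of lymph node stroma and 5 tested markers of granulocytes and mast cells, 0 passed, with 0, 0 and 2 at an unadjusted p under 0.05. The lymph node stroma list summed to 271 FPKM in control 1, 65.0 in control 2, 158 in inhibitor 1 and 189 in inhibitor 2. Within it Ccl21a had 127 and 0.237 FPKM in control 1 and control 2, whereas Cxcl13 had 60.3 and 58.2. The part of lymph node tissue in the levels of members and receptors was not tested. In the T and NK cell list Prf1 and Klrb1c, of cytotoxic cells, were the 2 of 12 past the threshold, both higher (4 higher and 0 lower at an unadjusted p under 0.05).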

How the data were processed

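Total RNA from 4 pools of 3 animals was sequenced with a directional library kit, per the labels' protocols. The authors' deposited FPKM values came from TopHat2 2.0.11 and Cufflinks 2.1.1 on mm10, per the submitters' processing notes; the sources used here do not give settings, annotation or use of strand, so reads of a gene and an antisense or overlapping neighbour may not be separate. FPKM holds no counts, and depth is unknown.

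From these values, 12345 rows averaging 1 FPKM or more were compared as log2(FPKM + 1) with limma 3.58.1 in R 4.3.3 (eBayes with a trend, two-sided, Benjamini-Hochberg over all rows tested, threshold 0.05, 5.29 total and 2 residual degrees of freedom), tested on simulated data. Members, lists and tests were chosen with earlier results of these data known. Named are all members, their binding partners, and up to 4 called genes per list, and other genes, marker genes included, were named after their values were seen. Alternatives were other pseudocounts, no filter, other scalings, no trend, a replicate block and leaving out each library. Vsir and Nectin2 were matched by gene ID. Coordinates and 3' untranslated regions come from GENCODE M21 (GRCm38), and microRNA and promoter sequences from RefSeq. Protein sequences were not used here, and 1 gene of the list of PD-L1 regulators is not reported here.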

Additional observations from a re-analysis of the deposited data

How the results depend on the processing

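The count of 1 member higher and 0 lower held under 8 of the 11 alternatives, and the members' count was 2 without control 1 (Icosl added) and 0 without either inhibitor library. Leaving out each library in turn gave 0 to 2 members higher and 0 lower, 0 to 687 of all rows higher and 0 to 98 lower, 0 to 3 other ligands higher, 0 to 5 receptors higher and 0 to 1 lower, 0 to 4 death pathway genes higher, and 0 to 4 PD-L1 regulators higher. In each of these fits the single library left in a group is assumed to vary like the pair of the other group, and without an inhibitor library 0 of all rows passed. With no filter the counts were 122 higher and 10 lower of all rows, 0 receptors, 0 death pathway genes and 0 PD-L1 regulators, and with no trend 215 and 11, 0 receptors, 1 death pathway gene and 1 PD-L1 regulator. Quantile normalization gave 326 higher and 92 lower with 0 receptors, upper quartile scaling gave 278 and 55 with 0 receptors and 1 death pathway gene, and these scalings moved the median of all rows by -0.099 and -0.095. Same-numbered libraries did not deviate together (correlation of their differences across genes -0.0058), so the numbers were not taken as pairs. A replicate block gave 333 higher and 21 lower, 1 member and 0 receptors, and left Cd274 at an adjusted p of 0.0174.

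Of 99 values of the tested members under the alternatives 94 kept their direction and side of the threshold. The exceptions were Cd274 without each inhibitor library (log2 fold change 1.26 and 1.15, no longer past it), Icosl without control 1 (1.16, now past it) and without control 2 (-0.23, reversed), and Fas with quantile normalization (-0.0026, from 0.10, about the shift of all rows and within its SE). The untested difference of Pdcd1lg2 kept its direction and grew with a pseudocount of 0.1 or 0.5 (1.80 and 0.95). Cd274 lost its call only in the settings that left 1 inhibitor library. The Icosl controls, at 19.1 and 6.64 FPKM, lay on either side of its inhibitor values of 15.7 and 16.5 FPKM, so its value depended on which control was kept. Why the Icosl controls differed was not tested. Low levels limit Pdcd1lg2, Pdcd1, Cd40lg and Tnfrsf17, and 2 libraries a group limit every p. Tested partners with values under 1 FPKM, such as Fasl and Ctla4, also depended on the pseudocount. With 0.1 added their log2 fold changes went from 0.73 to 1.22 and from 0.52 to 1.19, and neither passed.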
